A study of Mus musculus with 12 samples.

Results

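The expression of 10 genes that mark macrophages and other leukocytes was followed across sorted kidney tubules of the mouse. The genes were Tyrobp, Fcer1g, Cd52, C1qa, C1qb, C1qc, Cd74, Ptprc, Csf1r and Laptm5, picked by gene name among the non-control probes of the array. They are 10 of the 27745 gene names on the array and are covered by 17 of its 41174 probes, each described on its own. Whether a probe was well above background is the call of the scanner's software, and only probes with 4 or more such arrays among the 12 were tested. This held for 25819 probes in all and for 12 of the 17 probes of these genes, which left C1qa and C1qc without a tested probe.

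A COPAS flow sorter, which handles particles as large as tubule fragments, was used on a suspension of renal tubules to find genes enriched in the distal convoluted tubule (DCT). The EGFP+ fraction holds fluorescent DCT fragments, the EGFP- fraction holds tubules without fluorescence, and the ALL fraction is the total. Each of 4 mice gave all 3 fractions, so every fraction has n = 4 arrays. Mice 1 and 3 are female and mice 2 and 4 are male. The labels and the design text do not state what makes the tubules fluoresce, nor the strain, age, genotype or any treatment of the mice. They describe sorting on EGFP and name no leukocyte marker. Total RNA of many tubules was read on each array, so fewer leukocytes and less RNA per leukocyte cannot be told apart. Nor can RNA of leukocytes carried along in a fraction be told from RNA of the tubule cells.

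The kidney holds resident macrophages between and around its tubules, together with dendritic cells and smaller numbers of lymphocytes. Tyrobp (the adaptor DAP12) and Fcer1g (the common Fc receptor gamma chain) are short transmembrane adaptors that lend an immunoreceptor tyrosine-based activation motif (ITAM) to receptors that have none. Ptprc encodes CD45, the phosphatase found on nearly all leukocytes, and Csf1r the receptor that macrophages need for survival, with Csf1 and Il34 as its ligands. Cd74 is the invariant chain that guides MHC class II molecules, C1qa, C1qb and C1qc encode the chains of complement C1q, Cd52 is a small lipid-anchored surface glycoprotein of leukocytes, and Laptm5 is a lysosomal membrane protein of blood cells.

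The probe sequences that bear on the main contrasts are given here from 5′ to 3′ as printed on the array, with positions in the mm8 mouse genome per the file headers. No annotation of that build was used, so exon and UTR positions are not stated. The pair of Fcer1g probes lies side by side on the minus strand, at chr1:173066390-173066462 and chr1:173066338-173066397, and shares 8 bases, shown in capitals. The last 30 bases of the one and the first 30 bases of the other are printed, since the pair measured neighbouring stretches of a single transcript.
Fcer1g A_51_P405478: ctctacatcagtgtacactggcAGGTCCCC
Fcer1g A_51_P405476: AGGTCCCCatctccgttaaagacttactca
The Tyrobp probe is shown because its 60 bases align over 1728 genomic bases, at chr7:30124392-30126119 on the plus strand, so that it crosses spliced-out sequence.
Tyrobp A_51_P261517: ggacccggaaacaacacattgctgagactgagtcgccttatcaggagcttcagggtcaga
Ptprc has 4 probes spread along the minus strand of chromosome 1, which differ in whether they gave any signal. A_52_P677117, at chr1:139879923-139879982, lies farthest toward the 3′ end. A_52_P239834 lies 2602 bases upstream of it, A_52_P11901 50196 bases and A_52_P341128 60822 bases upstream. The first 30 bases of the outer pair and the whole of the inner pair are given.
Ptprc A_52_P677117: ttatgggaaatgtaaaattgactatggcca
Ptprc A_52_P239834: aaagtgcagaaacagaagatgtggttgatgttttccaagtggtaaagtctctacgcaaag
Ptprc A_52_P11901: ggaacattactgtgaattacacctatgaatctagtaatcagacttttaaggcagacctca
Ptprc A_52_P341128: tggtcctgaatatgagaggtatgtcttacc

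Levels are log2 processed signals minus the array's own 75th percentile, so 0 is the upper quartile of an array and a level of one probe cannot be set against that of another. The 75th percentile ran from 922 to 2270 over the arrays, and 53.9% to 65.6% of probes were well above background. Mouse 4 gave the 2 dimmest arrays, ALL at 922 and EGFP- at 1007. The fractions carried the markers of their labels: 6 of 6 tested DCT genes were higher in EGFP+ than in EGFP- tubules, and 7 of 7 proximal tubule and 6 of 6 podocyte genes were lower. Intercalated cell genes fell less than these: 2 of 6 were lower and 0 higher, with a median difference of -0.39. Within a mouse, their summed EGFP+ signal was 41.4% to 66.5% of the EGFP- signal.

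EGFP+ tubules were compared with EGFP- tubules to ask which of the leukocyte genes followed the sort. Tyrobp, Cd52, Cd74, Ptprc and Laptm5 were lower in EGFP+ tubules on all 7 of their tested probes. Cd52, Cd74 and Ptprc, the 3 of these with a probe above background on any EGFP+ array, differed by -3.74, -2.52 and -2.22 on the log2 scale. Fcer1g went the other way and was higher on both of its probes, by 0.87 and 1.53. Csf1r and C1qb did not pass the test. Of the 12 probes tested, 7 were thus lower, 2 higher and 3 past neither way in limma (adjusted p under 0.05), with a median difference of -2.30. Of the 7 lower probes, 4 (Tyrobp, Ptprc A_52_P239834 and both Laptm5 probes) were above background on no EGFP+ array and so were tested only through the arrays where they were high. With these 4 at their bound (defined with Tyrobp) the median was -0.67. Normexp, another background correction, was run on the mean signal with an added offset of 50 and the same scaling. Under it 3 probes were lower (Cd52, Cd74 and Ptprc A_52_P677117) and both Fcer1g probes stayed higher. Of all 25819 probes, 3787 were lower and 7578 higher with normexp. With a filter of at least 8 arrays 4 of 9 were lower, against 5437 of all 23368 probes. In the main analysis 23.9% of all 25819 probes were lower and 32.8% higher, 56.7% in either direction, with a median difference of 0.14. The share lower among the members cannot be read as support, since the filter let in probes that were high in the other fractions only. The levels of EGFP+ and EGFP- tubules did not overlap for 9 of the 12 probes, against 54.5% of all probes.

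**Figure D1:**
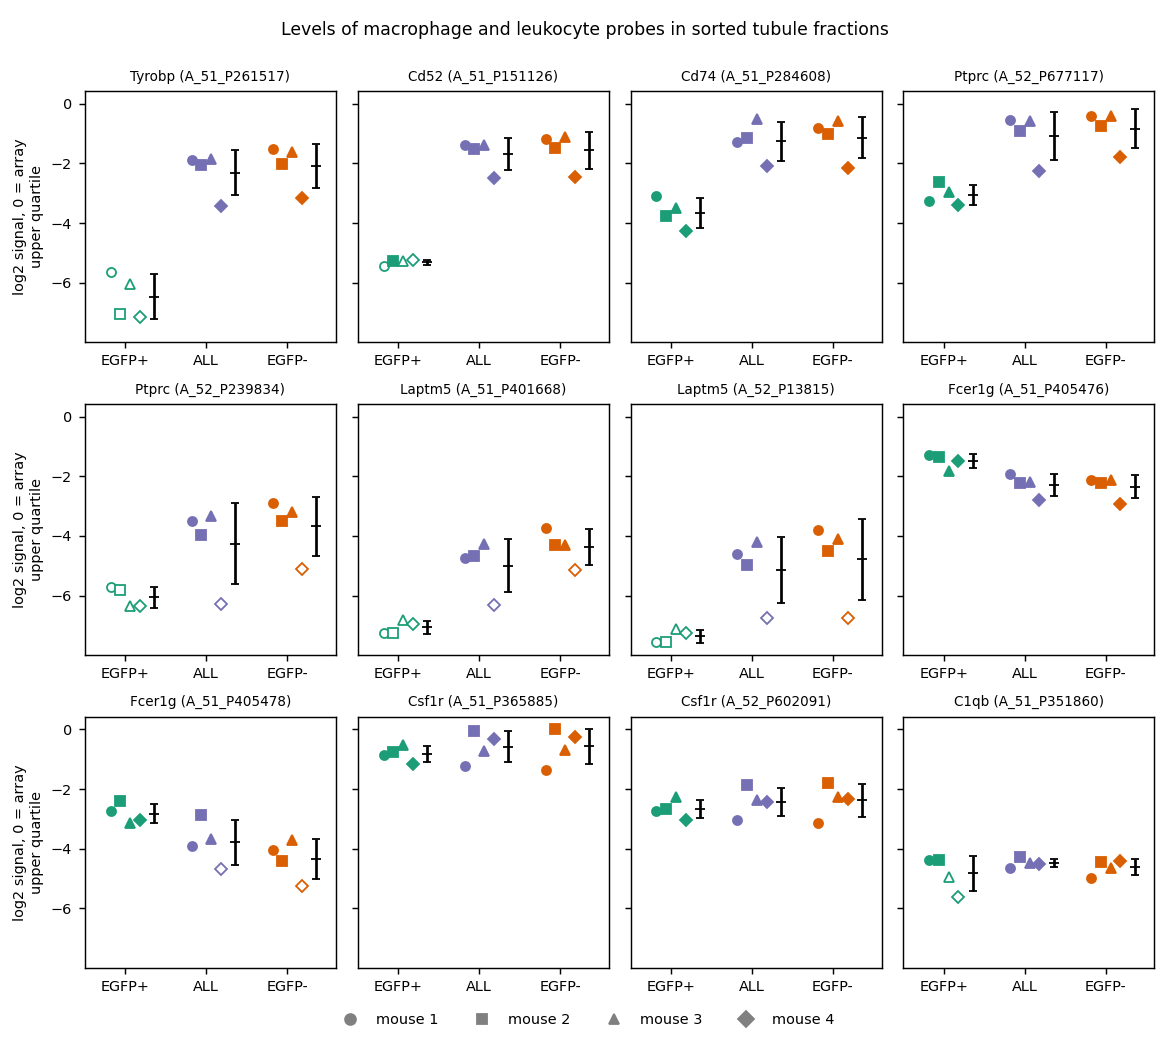
Levels of the 12 tested probes (log2 processed signal, 0 = upper quartile of the array) in the EGFP+, ALL and EGFP- fractions. Each symbol is 1 mouse, drawn open where the probe failed the background call, and the bar is the mean ± SD of 4 mice. Tyrobp, Cd52, Cd74, Ptprc and Laptm5 sit lower in EGFP+, Fcer1g sits higher, and the mouse 4 diamond is the lowest in ALL and EGFP- for each of the first 9 probes.

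Among the adaptors, Tyrobp was lower in EGFP+ tubules. In mice 1 to 4 its level was -1.53, -2.03, -1.63 and -3.17 in EGFP- tubules and -1.88, -2.06, -1.87 and -3.44 in the ALL fraction. In EGFP+ tubules it was -5.63, -7.03, -6.04 and -7.15, and on none of these 4 arrays was the probe well above background. Every EGFP+ array thus lay below every other array. The fitted difference was -4.38 ± 0.48 (SE, n = 4 mice; adjusted p = 9.17e-06), and with normexp it was -1.14 and did not pass (adjusted p = 0.0644). Because the EGFP+ level is only a bound, the fold is one too: Tyrobp was at least 8.98-fold lower than in EGFP- tubules. For such a bound, each dim array contributes its detection limit (its lowest signal called above background) or the probe's own signal, whichever is higher, and the mean of these is set against the mean of the brighter fraction.

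Fcer1g, the other adaptor, was well above background on all 12 arrays with probe A_51_P405476. Its level in mice 1 to 4 was -1.27, -1.35, -1.81 and -1.48 in EGFP+ tubules. It was -2.11, -2.21, -2.14 and -2.92 in EGFP- tubules and -1.93, -2.23, -2.18 and -2.80 in the ALL fraction. The lowest EGFP+ array lay above the highest array of the other fractions. The difference from EGFP- tubules was 0.87 ± 0.23 (SE; adjusted p = 0.00608), which is 1.82-fold higher (95% confidence interval 1.30 to 2.57) and higher in 4 of 4 mice.

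The adjoining probe, A_51_P405478, gave -2.73, -2.40, -3.13 and -3.02 in EGFP+ tubules and -4.04, -4.42, -3.70 and -5.23 in EGFP- tubules. The groups did not overlap, and the difference of 1.53 ± 0.39 (adjusted p = 0.00529) is 2.88-fold (1.60 to 5.19). In mouse 4 the EGFP- and ALL levels of this probe, -5.23 and -4.69, were not well above background. The sequences printed above show that these probes read abutting stretches, so they are not independent measurements.

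Cd52, the surface glycoprotein, was lower in EGFP+ tubules. Its probe lies at chr4:133365666-133365725. The level in mice 1 to 4 was -1.19, -1.49, -1.12 and -2.44 in EGFP- tubules, -1.40, -1.52, -1.37 and -2.47 in the ALL fraction, and -5.43, -5.29, -5.27 and -5.24 in EGFP+ tubules. The 4 EGFP+ values differed little among themselves (SD 0.09), and the probe was well above background on 1 of them, that of mouse 2. By these signals, of which 3 EGFP+ values failed the background call, EGFP+ tubules lay 13.4-fold below EGFP- tubules (8.46 to 21.3; difference -3.74 ± 0.30, adjusted p = 7.23e-07), and the arrays did not overlap. With normexp the difference was -1.51 (adjusted p = 0.00918).

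Cd74 kept a measurable signal in the EGFP+ fraction. Its level was -3.09, -3.78, -3.50 and -4.28 in EGFP+ tubules of mice 1 to 4, well above background on each. In EGFP- tubules it was -0.83, -1.01, -0.59 and -2.14, and in the ALL fraction -1.28, -1.13, -0.52 and -2.10. No EGFP+ array reached the lowest of the other fractions, that of mouse 4. The difference from EGFP- was -2.52 ± 0.40 (adjusted p = 0.000187), or 5.73-fold (3.14 to 10.5), and with normexp -1.18 (adjusted p = 0.0137). Within a mouse, the EGFP+ signal of Cd74 was 13.3% to 22.7% of the EGFP- signal.

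Ptprc is the best measured of the genes, since probe A_52_P677117 is spotted 10 times per array and the SD over its spots was 0.031 to 0.236. The level in mice 1 to 4 was -3.26, -2.63, -2.96 and -3.39 in EGFP+ tubules, -0.42, -0.74, -0.41 and -1.79 in EGFP- tubules and -0.53, -0.93, -0.59 and -2.26 in the ALL fraction. EGFP+ tubules were 4.67-fold lower than EGFP- tubules (2.54 to 8.61; difference -2.22 ± 0.40, adjusted p = 0.000548), with no overlap, and with normexp the difference was -1.31 (adjusted p = 0.0159). The CD45 message was thus still well above background in the EGFP+ fraction of all 4 mice. Its signal there was 13.9% to 33.0% of that in the EGFP- tubules of the same mouse.

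The Ptprc probes farther upstream rose above background on fewer arrays. A_52_P239834 was well above background on 6 arrays, none of them EGFP+ and none of mouse 4, and Ptprc was at least 2.97-fold lower in EGFP+ than in EGFP- tubules by it (difference -2.38 ± 0.63, adjusted p = 0.00656). With normexp this difference was -0.07 and the call was lost (adjusted p = 0.904). A_52_P11901 and A_52_P341128 had no array above background. Their levels ran from -8.09 to -6.66 and from -8.18 to -5.97, so a statement on Ptprc from this array rests on its 3′ probes.

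Laptm5 has a pair of probes 108 bases apart, at chr4:130206946-130207005 and chr4:130207054-130207113. Each was well above background on 6 arrays, the ALL and EGFP- arrays of mice 1, 2 and 3. On the EGFP+ arrays the levels lay between -7.57 and -6.82. The differences from EGFP- were -2.69 ± 0.40 (adjusted p = 0.000131) and -2.58 ± 0.64 (adjusted p = 0.00469), and as bounds Laptm5 was at least 1.84-fold and at least 1.38-fold lower. With normexp these differences were 0.29 and 0.28, of the other sign and not past the test (adjusted p = 0.655 and 0.671).

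**Figure D2:**
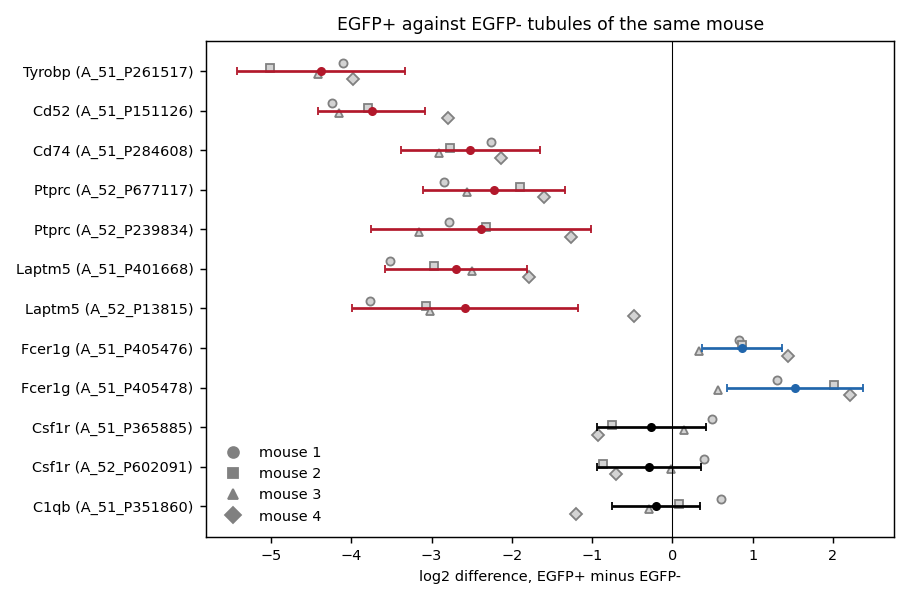
Difference EGFP+ minus EGFP- (log2) for each tested probe. Grey symbols are the 4 mice, and the coloured point with its bar is the limma estimate with its 95% confidence interval, red where lower, blue where higher and black where the adjusted p is not under 0.05. The points of Tyrobp, Ptprc A_52_P239834 and Laptm5 rest on EGFP+ arrays below background and show no measured size, the Fcer1g probes lie above 0 in every mouse, and the Csf1r and C1qb mice fall on both sides of 0.

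Csf1r, the macrophage growth factor receptor, showed no difference between EGFP+ and EGFP- tubules that passed the test. With probe A_51_P365885 (chr18:61256099-61256158, plus strand) the level in mice 1 to 4 was -0.87, -0.75, -0.53 and -1.17 in EGFP+ tubules. It was -1.37, 0.00, -0.68 and -0.24 in EGFP- tubules and -1.22, -0.04, -0.72 and -0.33 in the ALL fraction. The fractions overlapped throughout. The difference from EGFP- was -0.26 (95% confidence interval -0.94 to 0.42, adjusted p = 0.499), so a fall as large as that of Cd74 or Ptprc lies outside its interval. The probe 685 bases upstream, A_52_P602091, gave -0.29 (-0.94 to 0.36, adjusted p = 0.420). A further probe 20962 bases upstream had no array above background.

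In the gene order of the reference annotation Csf1r stands between Pdgfrb, the platelet-derived growth factor receptor of pericytes, and Hmgxb3. Pdgfrb was 32.7-fold lower in EGFP+ than in EGFP- tubules (difference -5.03), and Hmgxb3 differed by 0.27 (adjusted p = 0.158).

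The ligands of that receptor moved with the sort. Csf1 was 17.3-fold lower in EGFP+ tubules (0.18 ± 0.52 in EGFP- against -3.94 ± 0.45 in EGFP+, SD, n = 4; adjusted p = 1.49e-06), and Il34 was 11.5-fold lower (adjusted p = 0.0013). Csf2ra, a receptor subunit for another colony stimulating factor, was 1.78-fold higher (adjusted p = 0.00133). Of 5 tested genes among the colony stimulating factors and their other receptors, 2 were lower and 1 higher.

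The C1q chains were close to the limit of the array in all fractions. C1qb was well above background on 2 EGFP+ arrays and on all ALL and EGFP- arrays, with levels of -5.61 to -4.37 in EGFP+ and -4.99 to -4.41 in EGFP- tubules. These overlapped, and the difference was -0.20 (95% confidence interval -0.75 to 0.35, adjusted p = 0.515). C1qa was well above background on 1 array, ALL of mouse 3, and C1qc on 3, so no fold is given for either.

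EGFP+ tubules were also set against the total fraction, a comparison that shares its EGFP+ arrays with the one above. Against ALL, 7 of the 12 probes were lower in EGFP+ tubules and 1 higher, with 22.9% of all probes lower, 31.1% higher and 54.0% in either direction. With normexp 3 were lower and 0 higher, against 3293 lower and 4566 higher of all 25819 probes. Tyrobp was at least 7.67-fold lower, Cd52 12.3-fold, Cd74 5.29-fold and Ptprc 3.95-fold by A_52_P677117. By A_52_P239834 Ptprc was at least 1.99-fold lower (adjusted p = 0.0292), which did not pass without mouse 1, 2 or 3 (adjusted p = 0.101, 0.116 and 0.171). Laptm5 was at least 1.19-fold and at least 1.08-fold lower on its probes. The second of these, A_52_P13815, also missed the threshold without mouse 1, 2 or 3 (adjusted p = 0.0654, 0.0772 and 0.0640).

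Fcer1g was 1.75-fold higher than in ALL with A_51_P405476 (difference 0.81 ± 0.23, adjusted p = 0.00969), and without mouse 2 this did not pass (adjusted p = 0.0616). With A_51_P405478 the difference was 0.97 (adjusted p = 0.0535). This second probe passed with the mouse as a block (adjusted p = 0.0168), where 2 of the 12 probes were higher rather than 1.

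No member passed the test between ALL and EGFP- tubules. Of the 12 probes none passed in either direction (0 at an unadjusted p under 0.05), and of all probes 1.08% did, 0.00387% as lower and 1.08% as higher. The median difference was -0.12, with 9 of 12 probes below 0, and Tyrobp was at -0.23 (95% confidence interval -1.27 to 0.82), Cd52 at -0.13 (-0.79 to 0.54) and Ptprc at -0.24 (-1.12 to 0.64). In all 4 mice 4 probes were lower in ALL, against 10.1% of all probes.

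The arrays lay on 3 slides that mix fractions and mice. For EGFP+ minus EGFP-, the 7 lower probes and both Fcer1g probes kept their direction within each slide. The probes of Csf1r and C1qb did not. On slides 1, 2 and 3, C1qb stood at 0.61, -0.50 and -1.08. Csf1r stood at 0.56, -0.54 and -0.71 by A_51_P365885 and at 0.43, -0.47 and -0.73 by A_52_P602091. Few arrays stand behind each slide. On slide 2 the EGFP+ array of mouse 3, a female, is set against the EGFP- array of mouse 2, a male. Slide 1 has the EGFP- array of mouse 1 alone, and slide 3 the EGFP+ array of mouse 4 alone. Within slides 1, 2 and 3 all 7 lower probes were below 0 for EGFP+ minus EGFP-, from -4.80 to -2.53, from -4.02 to -2.22 and from -4.75 to -1.82. Both Fcer1g probes were above 0 on each slide, at 0.80 and 1.47, 0.40 and 1.29, and 1.05 and 1.45. For ALL minus EGFP-, slide 3 sets the ALL array of mouse 4 against the EGFP- arrays of mice 3 and 4, and there the 7 probes lay at -2.11 to -0.69.

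Wider sets of immune genes were read beside these 10, each set by its tested genes and the probe with the highest mean. Over all related lists 96 of 135 genes were lower in EGFP+ than in EGFP- tubules, and 54 with normexp. This count is not of immune genes alone. It takes in the tubule, podocyte, endothelial, stromal and erythroid lists and the neighbours of Fcer1g. Medians of the sets take in genes that were below background on every EGFP+ array, and a fold is given as a bound for such a gene. Such genes were 5 of 11 tested pan-leukocyte, 6 of 13 ITAM, 4 of 10 T and NK cell and 3 of 4 neutrophil and mast cell genes. The filter let them in through the other fractions only, so counts and medians of the sets cannot be read as support. Of 12 tested monocyte and macrophage genes, 10 were lower in EGFP+ than in EGFP- tubules and none higher, with a median difference of -2.90 against 0.14 over all probes. Mrc1, the mannose receptor of tissue macrophages, was at least 15.2-fold lower, Lyz2 (lysozyme) 29.9-fold and Clec7a (the beta-glucan receptor dectin-1) at least 6.33-fold. The summed signal of the 12 genes, in units of the array's upper quartile, was 0.687 to 1.03 in EGFP+, 4.73 to 13.3 in ALL and 6.09 to 16.4 in EGFP- tubules. Itgam, Mrc1, Cybb, Ccr2 and Clec7a, 5 of the 12, had no EGFP+ array above background. Cd68, picked out after its value was seen, was at 0.05 (adjusted p = 0.955).

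Genes shared by most leukocytes gave 10 lower and 1 higher of 11 tested, with a median of -2.11. Coro1a, which binds actin in leukocytes, was 30.4-fold lower by signals above background on 1 of 4 EGFP+ arrays, Lcp1 (plastin) 21.9-fold with 2 of 4, and Cd53 (a tetraspanin) at least 5.03-fold. The gene that rose was Cytip, a cytohesin-binding protein, higher in EGFP+ tubules by 3.58 ± 0.23 (SE; adjusted p = 1.14e-07), at 3.45 ± 0.15 against -0.14 ± 0.45 (SD, n = 4). With Cytip included, the summed signal of the 11 genes was higher in EGFP+ tubules, at 9.94 to 12.3 against 2.30 to 4.26 in EGFP- tubules. Such a sum is set by its brightest probes.

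The receptors and kinases that work with Tyrobp and Fcer1g fell in the main. Of 13 tested, 9 were lower and 1 higher, with a median of -2.26. The Fc receptors Fcgr2b, which carries an inhibitory motif, and Fcgr3, which signals through the Fcer1g chain, were 46.2-fold and 27.6-fold lower. Hcst, which encodes the adaptor DAP10 and is the next gene to Tyrobp in the reference order, was 3.52-fold higher in EGFP+ tubules. Its levels in mice 1 to 4 were -1.23, -1.47, -1.36 and -1.74 in EGFP+ and -2.61, -3.95, -2.73 and -3.77 in EGFP- tubules, with no overlap. Lrfn3, on the other side of Tyrobp, was 7.05-fold higher. Both genes next to Tyrobp thus differed in the direction opposite to it. Farther out, Nfkbid was lower (difference -0.73, adjusted p = 0.0335) and Sdhaf1 did not pass (-0.41, adjusted p = 0.336).

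Fcer1g lies next to Apoa2 in the same order. Of 7 tested genes near Fcer1g, 4 were higher in EGFP+ tubules and 1 lower, with a median of 0.33. Tomm40l was 1.78-fold higher, B4galt3 1.52-fold and Usp21 1.26-fold, while Apoa2 was 1.63-fold lower. Nr1i3 (difference -0.28) and Ppox (-0.25) did not pass.

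Around Cd74, 8 of 9 tested genes of MHC class II presentation were lower and 1 higher (median -2.20). Ciita, the master activator of class II transcription, was at least 2.94-fold lower, H2-Ab1 8.67-fold and H2-DMb1 8.19-fold, and Ifi30, a lysosomal thiol reductase, was 1.73-fold higher. Cd74 also serves as a receptor for the cytokine MIF. Of 4 tested genes of that pathway 1 was lower, Cd44 (at least 2.86-fold), and Mif itself differed by -0.28 (adjusted p = 0.160).

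All 12 tested complement genes other than C1q were lower in EGFP+ tubules, with a median of -3.16. C2 was 41.6-fold lower, Cfi 19.5-fold and Cfb 38.0-fold, the last with a value on 3 of 4 EGFP- arrays. The list is not specific to leukocytes, since renal epithelium also makes complement components.

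Lymphocyte and granulocyte genes were lower as well. Among T and NK cell genes 6 of 10 tested were lower and none higher (median -1.57), led by Cd8a, at least 4.10-fold. Among B cell genes 5 of 6 were lower (median -2.68), such as Cd79b, at least 6.28-fold, and 1 was higher, the adaptor Blnk, 5.69-fold. The summed signal of the B cell genes, Blnk included, was 23.8 to 33.3 in EGFP+ and 4.82 to 7.17 in EGFP- tubules. Of 4 tested neutrophil and mast cell genes 3 were lower (median -3.29), with S100a9, a calprotectin subunit, at least 20.6-fold.

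The fall was not limited to blood cells. Endothelial genes were lower on 7 of 7 (median -3.34, Cldn5 54.8-fold), podocyte genes on 6 of 6 (median -6.62, Wt1 132-fold with 2 of 4 EGFP+ arrays above background), erythroid genes on 3 of 3 (median -5.44) and stromal genes on 4 of 7 (median -4.90). The summed signal of the 7 endothelial genes was 3.24 to 4.53 in EGFP+ and 38.5 to 64.4 in EGFP- tubules. Their part in the results for the leukocyte genes was not tested.

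**Figure D3:**
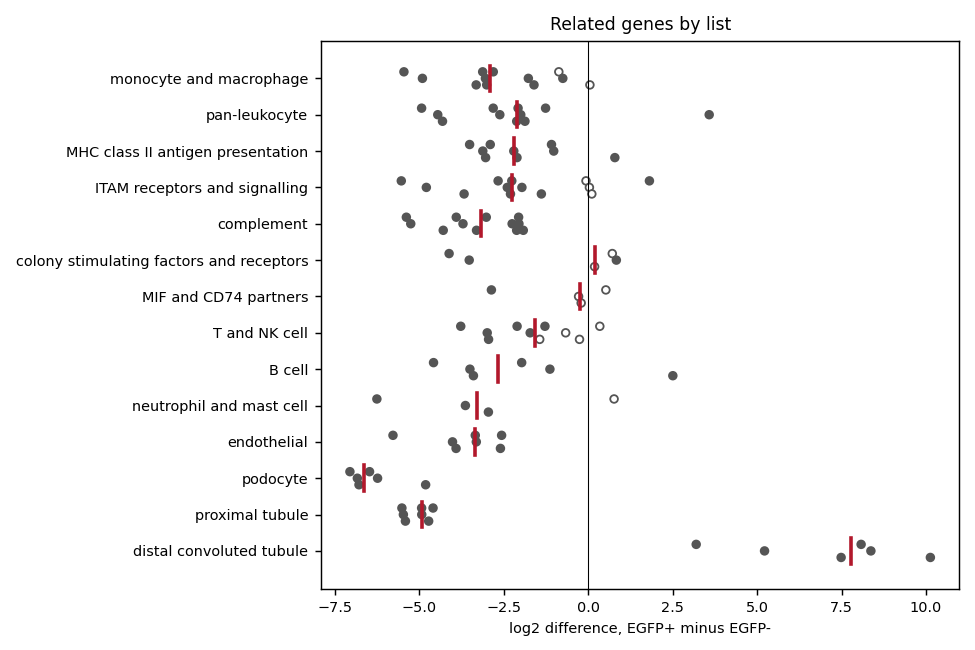
Difference EGFP+ minus EGFP- (log2) of each tested gene in the related lists. Each circle is 1 gene, filled where the adjusted p is under 0.05, and the red line is the median of the list. The medians of the neutrophil and mast cell (-3.29), complement (-3.16), macrophage (-2.90) and T and NK cell (-1.57) lists lie well left of 0, those of the MIF partners (-0.24) and colony stimulating factors (0.19) lie near it, and Cytip, Blnk, Hcst, Csf2ra and Ifi30 are the filled circles on the right among the immune lists.

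Mouse 4 stood apart from the other mice in the level of Fcer1g and of the genes lower in EGFP+ tubules, but not of Csf1r or C1qb. Csf1r by A_51_P365885 lay above mice 1 and 3 in mouse 4, at -0.33 in ALL and -0.24 in EGFP- tubules. C1qb in mouse 4 was at -4.51 in ALL and at -4.41 in EGFP- tubules, the highest array of that fraction. In both the ALL and the EGFP- fraction, all 7 probes that were lower in EGFP+ tubules had their lowest array in mouse 4. For 3 of them, Ptprc A_52_P239834 and both Laptm5 probes, these mouse 4 values were not above background. The other 4 were above it on all ALL and EGFP- arrays, and against the mean of mice 1 to 3 their median was -1.31 in ALL (-1.57 to -1.04) and -1.30 in EGFP- tubules (-1.44 to -1.18). Over all 7 the median was -1.57 and -1.33, and with dim values raised to the array's detection limit -1.12 (-1.57 to -0.17) and -1.27 (-1.73 to -0.81). Over all probes the same medians were -0.05 and 0.00, with a 5th to 95th percentile range of -1.18 to 0.79 and of -1.13 to 0.75, and mouse 4 was lowest for 39.0% and 34.6% of probes.

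Other genes moved with mouse 4 too. The macrophage list had a median of -1.49 in ALL and -1.34 in EGFP-, the T and NK cell list -1.17 and -1.07, the podocyte list -0.83 and -0.63, and the endothelial list -0.69 and -0.63. The proximal tubule list was higher, by 0.54 and 0.44. These arrays were also the dimmest 2 of the 12. Mouse 2, the other male, lay near 0 for the 7 probes, with medians of 0.23 and 0.13. The part of other cell types and of dim signal in the low values of mouse 4 was not tested. Without mouse 4 the same counts passed for EGFP+ against EGFP-, with 7 probes lower and 2 higher.

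**Figure D4:**
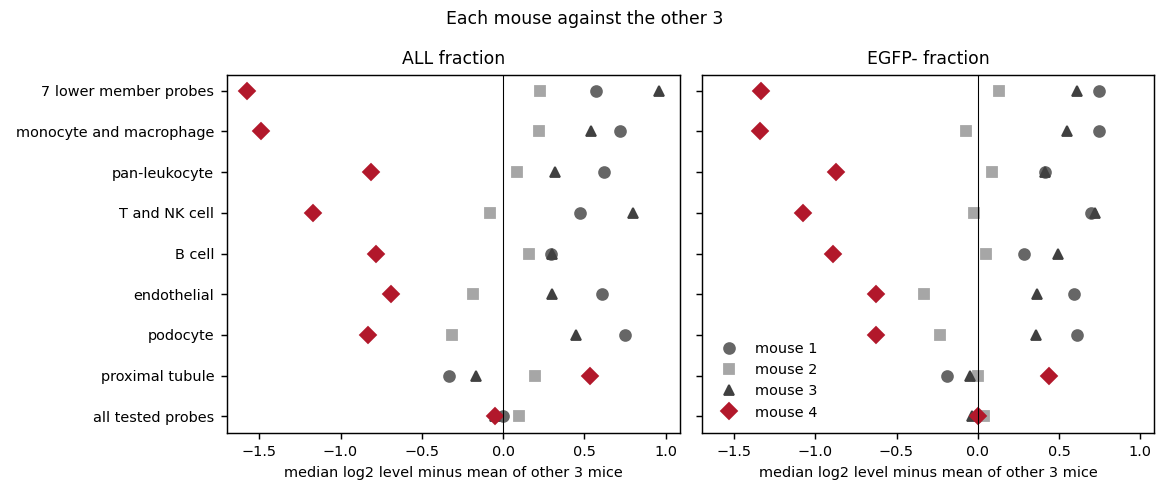
Each mouse against the mean of the other 3 (log2), in ALL (left) and EGFP- (right), as the median over the 7 member probes lower in EGFP+, over the genes of each list and over all tested probes. Mouse 4, in red, lies at -1.57 and -1.33 for the member probes, below 0 for the macrophage, pan-leukocyte, T and NK cell, B cell, endothelial and podocyte lists, above 0 for proximal tubule genes and at -0.05 and 0.00 for all probes.

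Fcer1g shared this pattern of the mice although it differed from the other genes between fractions. Its A_51_P405476 level was lowest in mouse 4 in ALL (-2.80) and in EGFP- tubules (-2.92), as was that of Ptprc (-2.26 and -1.79). In EGFP+ tubules, where the Ptprc level was lower than in any other array, mouse 4 held the second lowest Fcer1g value (-1.48) and mouse 3 the lowest (-1.81).

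**Figure D5:**
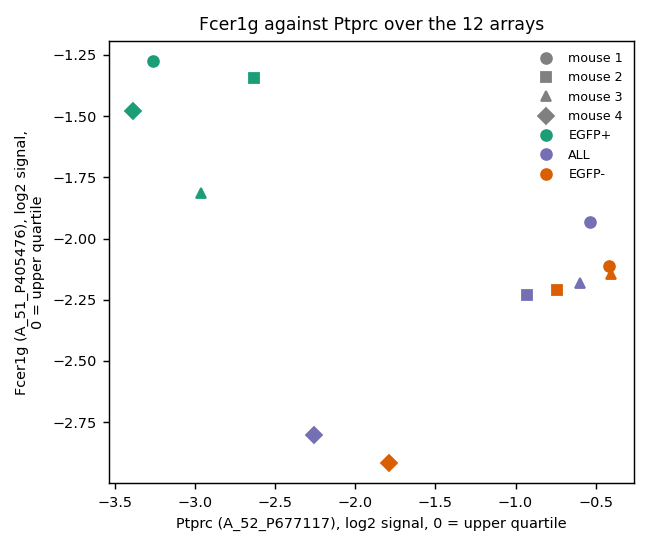
Level of Fcer1g (A_51_P405476) against Ptprc (A_52_P677117) on the 12 arrays, both as log2 signal with 0 at the upper quartile, coloured by fraction and with 1 symbol per mouse. The EGFP+ arrays lie at the upper left, with Ptprc at -3.39 to -2.63 and Fcer1g at -1.81 to -1.27, while within ALL and EGFP- mouse 4 is lowest on both axes.

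Sex was compared with 2 mice a side. None of the 12 probes passed for male minus female, over the mean of the fractions of each mouse, against 1.05% of all probes (0.229% lower and 0.825% higher). Only Tyrobp had an unadjusted p under 0.05 (difference -1.05 ± 0.32, adjusted p = 0.210), and its means were -3.71 and -4.58 in the males and -3.01 and -3.18 in the females. The EGFP+ minus EGFP- difference of Csf1r by A_51_P365885 was 0.50 and 0.14 in the females and -0.75 and -0.93 in the males. The test of that sex dependence did not pass (difference -1.16 ± 0.25, adjusted p = 0.310), nor did it for any of the 12 probes, of which 5 had an unadjusted p under 0.05. Of all probes 0% passed, with 2947 at an unadjusted p under 0.05.

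The genes most like each member over the 12 arrays were named by Pearson's r between levels, which mostly carries the difference between fractions. Tyrobp was closest to Pirb (r = 0.996), Ptger4 and Galnt10, and Cd52 to Tgfb1 (r = 0.999), H2-Q9 and Des. Cd74 was closest to Ccl5 (r = 0.990), Aldh1a2 and Batf2, Ptprc to a probe named NAP019557-001 (r = 0.992), Acer2 and Ada, and Laptm5 to Sgip1 (r = 0.988), Tdrd5 and Ms4a4b. Fcer1g was closest to Rnf167 (r = 0.986), Stx8 and Syne1, none of which is in the lists above. Csf1r and C1qb had no such close partner, at most 0.936 (Sumf2) and 0.934 (Braf).

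The promoters of the members were searched for GAGGAA on either strand, the core of the sites of PU.1, a transcription factor of macrophages. RefSeq windows from 250 bases before to 50 after the start were read for 6 promoters of 5 of the genes, in the GRCm38.p6 build. GAGGAA was found in 4 of these 6 windows and in 28.3% of all 32851 windows of that length. Ptprc and Laptm5, which fell, are shown around their match in capitals, on the strand of the gene, at chr1:138175433-138175488 (minus) and chr4:130913253-130913308 (plus).
Ptprc: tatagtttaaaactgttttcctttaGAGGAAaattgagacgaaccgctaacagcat
Laptm5: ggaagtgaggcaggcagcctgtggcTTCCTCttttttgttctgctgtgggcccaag
C1qb and C1qc held a match each, and the second Ptprc window and that of Fcer1g, which rose, held none of these letters. The match is a description of sequence and no evidence of binding, and its relation to the direction of a gene was not tested.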

How the data were processed

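RNA of 12 samples, 3 fractions of 4 mice, was hybridised to one-colour Agilent whole-genome arrays. Per the file headers, the deposited scanner files come from Feature Extraction 9.5.3.1 and hold linear intensities per spot: a mean signal, a local background and a processed signal from which background was already removed. The authors' deposited table of intensity values was used for a check only: each of its 12 columns matched the scanner array of another fraction of the same mouse (r of at least 0.999995, against 0.920 to 0.990 for its own heading), so no value was taken from it.

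Here log2 processed signals were scaled by the array's 75th percentile after outlier-marked spots were left out (66 to 516 per array), and replicate spots were averaged. Probes that the software called above background on 4 or more arrays were fitted with limma 3.58.1 (lmFit, eBayes, R 4.3.3), with 1 coefficient per fraction over the 12 arrays. P-values were adjusted by Benjamini-Hochberg over all tested probes. The number of arrays limits the precision. Sex was tested on the means of each mouse and its dependence on the differences of each mouse. The mouse numbers pair the samples, since the labels name the mouse. Deviations from the fraction means correlated between fractions of one mouse at 0.23 to 0.81, each above the highest value with another mouse. The procedure was tested on simulated data.

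Symbols came from RefSeq through the accession for 24375 probes, a current symbol for 6301 and an older one for 2426, and 8072 kept the name in the file. The genes, the lists and the tests were chosen with earlier results of these data known. From each list the 3 genes past the threshold with the largest difference are named, with any 1 in the opposite direction, all neighbours of Fcer1g, and the 3 genes most like each member. Some genes that this rule names are not reported here. Alternatives were the background correction, scaling, quantile normalization, the filter, outlier spots, the mouse and the slide as blocks, and leaving out mice.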

Additional observations from a re-analysis of the deposited data

Results flagged for a closer look

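The gap between mouse 4 and the nearest mouse was large for the range of its group in 3 of 22 groups of 4 arrays looked at, for a rule that chance meets in about 1 group in 20. Tyrobp stood at -3.44 in the ALL fraction of mouse 4, with the other mice between -2.06 and -1.87. Cd52 stood at -2.47 in the same sample, with the others between -1.52 and -1.37. Fcer1g (A_51_P405476) stood at -2.92 in EGFP- tubules of mouse 4, with the others between -2.21 and -2.11.

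Csf1r (A_51_P365885) was marked because its EGFP+ minus EGFP- difference was above 0 in both females (mean 0.32) and below 0 in both males (mean -0.84). The sex dependence was -1.16 and did not pass over all probes in limma (adjusted p = 0.310).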

How the results depend on the processing

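For EGFP+ minus EGFP-, 7 lower and 2 higher probes were called under median scaling, quantile normalization, no filter, outlier spots kept, the slide block, the replicate block, without each mouse and without the EGFP+ array of mouse 2. The exceptions were normexp, with 3 lower, and the filter of at least 8 arrays, with 4 lower of 9 tested. Under normexp the Laptm5 differences turned to 0.29 and 0.28, Ptprc A_52_P239834 stood at -0.07 and Tyrobp at -1.14 (adjusted p = 0.0644), Cd52, Cd74 and Ptprc A_52_P677117 kept their calls at -1.51, -1.18 and -1.31, and 54 rather than 96 of 135 related genes were lower. Tyrobp, Laptm5 and that Ptprc probe were all below background in EGFP+. Their processed signals there were 7.73 to 41.6, while normexp was run with an offset of 50 added to every signal. The cause was not tested.

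For EGFP+ minus ALL, the lower count was 3 with normexp, 4 with at least 8 arrays and 5 to 7 without a mouse. The higher count was 0 with normexp, 2 with median scaling, quantile normalization, at least 8 arrays, outlier spots kept or the replicate block, and 0 to 1 without a mouse. For male minus female, 1 probe was higher with normexp (C1qb, adjusted p = 0.0299), as were 4349 of all 25818 probes. The replicate block changed no other call. Median scaling moved the median of all probes for EGFP+ minus EGFP- from 0.14 to 0.30. With it, quantile normalization and normexp, the mouse 4 median in ALL was -1.36, -1.35 and -1.07, against -1.57 in the main analysis. In EGFP- it was -1.11, -1.18 and -0.87, against -1.33. Under normexp mouse 4 was lowest for 6 of 7 probes in each of these fractions, rather than for 7. These settings and the other treatments of dim values for mouse 4 were added after seeing the data. Signals near background limit Tyrobp, Cd52, Laptm5, Ptprc A_52_P239834, C1qa and C1qc.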
